A study of Mus musculus with 3 samples.

Results

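The TNF superfamily genes were examined in MC3T3-E1 cells, a line of preosteoblasts from mouse calvaria. Genes were taken by symbol alone, as every listed gene whose name begins with Tnfrsf, Tnfsf, Tnfaip or Traf followed by a digit, leaving out Tnfrsf11b and Tnfsf11, which gave 39 genes of 15287. They comprised 6 ligands, 16 receptors, 7 TRAF adaptors, 3 proteins that bind TRAFs and 7 TNF-induced proteins. RNA of wild-type cells was sequenced in 3 libraries, 1 per condition. CTL cells had no treatment, Ti cells were given titanium particles for 24 h at 10 μg per square centimetre, and Ti+Se-Met cells took 5 μM selenomethionine (Se-Met) along with that dose of particles for 24 h. No library held Se-Met without particles, so what Se-Met did was seen only in the presence of Ti. The study asked how Ti particles and Se-Met act on inflammation and bone formation by osteoblasts, and the comparisons here ask which TNF family genes differed between its conditions.

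TNF family ligands are mostly trimeric proteins on or shed from the cell surface, and each binds one or a few receptors of the matching family. Receptors with a death domain can recruit TRADD, FADD and caspase-8, whereas the others bind TRAF adaptors directly, and both routes can activate NF-kB and MAP kinases. In bone the family is known for TNF itself, which restrains osteoblast differentiation, and for control of osteoclast formation. Particles shed by implants are a known trigger of TNF-driven bone loss.

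FPKM, the deposited unit, gives fragments scaled to transcript length and to the fragments of the library, so that levels can be set beside each other across genes. Differences between libraries are given in log2(FPKM + 1), where the added 1 shrinks the difference of a low gene, and a gene was counted as 2-fold higher or lower where that difference reached 1. With 1 library per condition there was no replicate error and no test, and fewer cells with a transcript could not be told apart from less of it per cell. Folds of FPKM carry a 95% exact conditional binomial interval on estimated fragments, which covers counting error only and compares libraries, not conditions. The estimated depth was 14050000 fragments for the CTL library, 14700000 for Ti, and 10400000 for Ti+Se-Met. It is approximate, since 53.7%, 41.9% and 41.1% of the low values used for it lay on a step of 1 fragment. By chance 12% would at a depth fixed beforehand. Each depth was instead chosen for the highest such share, so the 12% cannot measure how well it is supported. Of 10 osteoblast markers, 7 reached 1 FPKM in any library, and 6 of these were lower in Ti than in CTL. Of all genes that reached 1 FPKM, 3.64% were 2-fold lower and 3.63% higher. The 3 markers 2-fold lower were Col1a1, at 1333 FPKM in CTL, 354 with Ti, and 482 with Ti+Se-Met, Col1a2, at 2688, 999 and 1257, and Alpl. Alpl stood at 1.51, 0.20 and 0.20 FPKM, so it reached 1 FPKM only in CTL. Spp1 alone went the other way, past 2-fold, at 1261, 3706 and 4659 FPKM. Sp7 and Ibsp, markers of committed osteoblasts, stayed at or below 0.63 FPKM. Among macrophage markers, Csf1r and Cd68 reached at most 0.42 FPKM, whereas Lyz2 gave 26.7, 14.8 and 12.4 FPKM and Cd14 gave 5.70, 16.6 and 14.8 FPKM, in the order CTL, Ti, Ti+Se-Met. The 4 macrophage markers listed summed to 32.5, 31.8 and 27.8 FPKM, and the part of such cells in the results was not tested. Of the lymphocyte markers 2 of 6 were listed, of the endothelial 2 of 4, and of the adipocyte and chondrocyte markers 1 of 3 each. Summed within each of these classes, they gave at most 0.72 FPKM in any library.

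Of the 39 genes, 26 reached 1 FPKM in 1 or more libraries, and the other 13 did not. In the Ti library 6 of the 26 differed at least 2-fold from CTL, against 7.26% of the 11137 genes that passed the same filter. Tnfrsf12a, Tnfrsf9, Tnfaip2, Tnfrsf1b and Tnfrsf23 were higher (5 of 26, beside 3.63% of all genes), and Tnfrsf19 was lower (1 of 26, beside 3.64%). In the Ti+Se-Met library 5 of 26 differed at least 2-fold from CTL, against 5.96% of all genes. The higher genes were Tnfrsf12a, Tnfrsf9, Tnfrsf1b and Tnfrsf23 (4 of 26, beside 2.64%), and Tnfrsf19 was again lower (1 of 26, beside 3.32%). Between Ti+Se-Met and Ti no gene of the 26 differed 2-fold, and 0.224% of all genes did, 0.162% on the higher side and 0.0629% on the lower. Both comparisons with CTL use the same CTL library, so they are not independent of each other.

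The median difference of the 26 genes was 0.27 in Ti against CTL, beside 0.08 over all 11137 genes. It was 0.14 in Ti+Se-Met against CTL, beside 0.01 over all genes, and turned to -0.04 when the values were rescaled to TPM. Ti+Se-Met against Ti gave 0.01, beside -0.06. The scaling of the libraries matters for these values, since rescaling to TPM moved the all-gene median of Ti against CTL from 0.08 to -0.14. Relative to that median the 26 genes stood 0.19 higher as deposited and 0.19 higher after TPM rescaling. The counts split differently too. Ti against CTL gave 5 higher and 1 lower as deposited and by the median of ratios, 3 higher and 3 lower after TPM rescaling, and 4 higher and 2 lower by the upper quartile. Ti+Se-Met against CTL gave 4 higher and 1 lower as deposited, 3 higher and 2 lower after TPM rescaling, and 3 higher and 1 lower by the upper quartile.

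**Figure D1:**
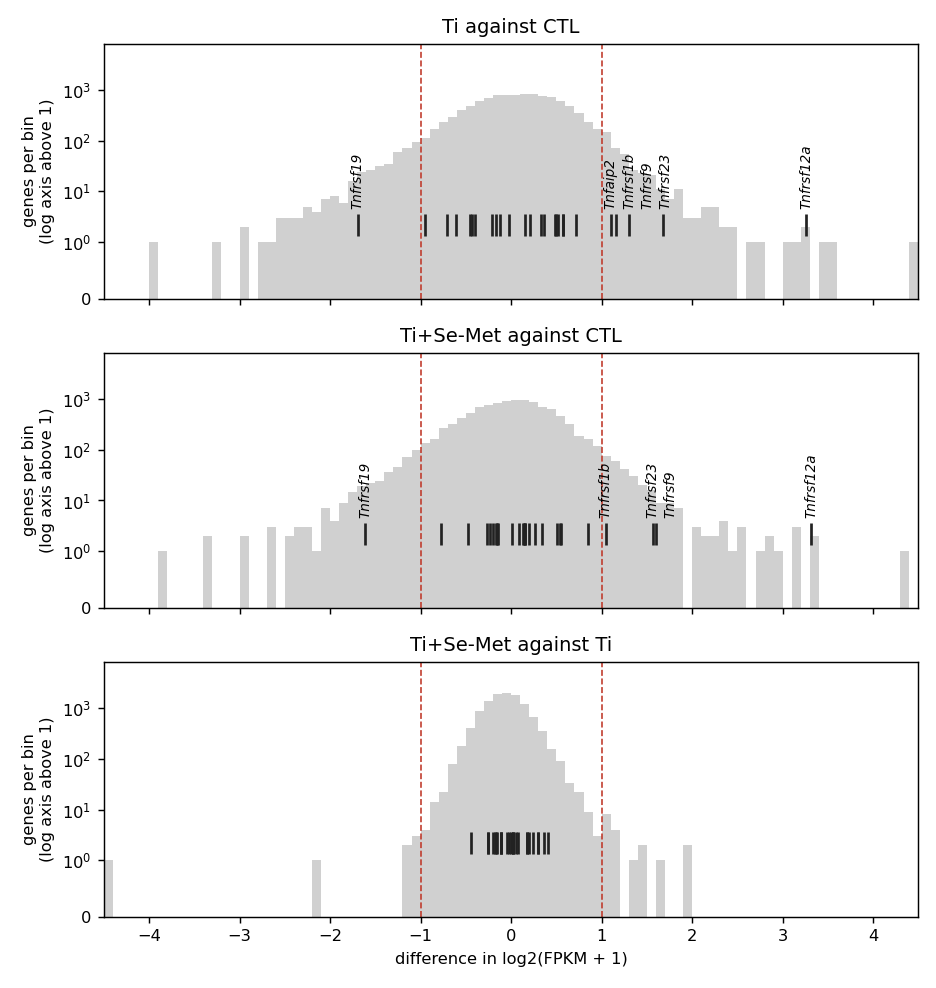
Differences in log2(FPKM + 1) for the comparison named above each plot (horizontal axes). Grey bars count the 11137 genes that passed the filter, in bins on a log axis, black ticks mark the 26 TNF family genes, and dashed lines mark 2-fold. Named ticks lie past 2-fold, with the name moved right where names would collide: Tnfrsf12a stands far to the right at 3.26 and 3.32 in the upper plots, and in the lowest plot no tick passes a dashed line.

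Ligand genes were few and low. Of the 6 listed, Tnfsf12 held 84.95% of their summed FPKM in CTL, 87.1% with Ti, and 86.7% with Ti+Se-Met. Tnfsf12 encodes TWEAK, the ligand of the receptor made by Tnfrsf12a. CTL had 22.2 FPKM of it, Ti 16.2 and Ti+Se-Met 20.1. The Ti library was thus the lowest for TWEAK, with a fold of 0.728 against CTL (0.625 to 0.846), and Ti+Se-Met exceeded Ti by 1.24-fold (1.05 to 1.46). The Tnfsf12 and Tnfsf13 genes both overlap Tnfsfm13, a read-through gene of both, which was listed at 4.01, 4.48 and 2.70 FPKM, so how reads were divided among them is uncertain. Tnfsf10 encodes TRAIL, which triggers apoptosis through death receptors, and its level was 3.08 FPKM in CTL, 1.68 with Ti, and 2.46 with Ti+Se-Met. Its fold was 0.545 for Ti against CTL (0.433 to 0.687) and 1.46 for Ti+Se-Met against Ti (1.13 to 1.89), so the Ti library was again the lowest. The other 4 ligands, Tnfsf13 (APRIL), Tnfsf13b (BAFF), Tnfsf14 (LIGHT) and Tnfsf15 (TL1A), stayed between 0 and 0.72 FPKM. Tnf, Tnfsf4, Tnfsf8, Tnfsf9 and Tnfsf18 were not analysed here.

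Receptor genes carried most of the difference in the summed level of the family between CTL and the other libraries. The FPKM of the 16 receptors summed to 184 in CTL, 527 with Ti, and 545 with Ti+Se-Met. Tnfrsf12a made up 15.3% of that sum in CTL, 52.7% with Ti, and 53.1% with Ti+Se-Met, and took the leading place from Tnfrsf1a, whose share was 46.1%, 23.9% and 22.8%. Without Tnfrsf12a the sums were 156, 249 and 256 FPKM, so the other 15 receptors together were also higher in both libraries with particles.

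**Figure D2:**
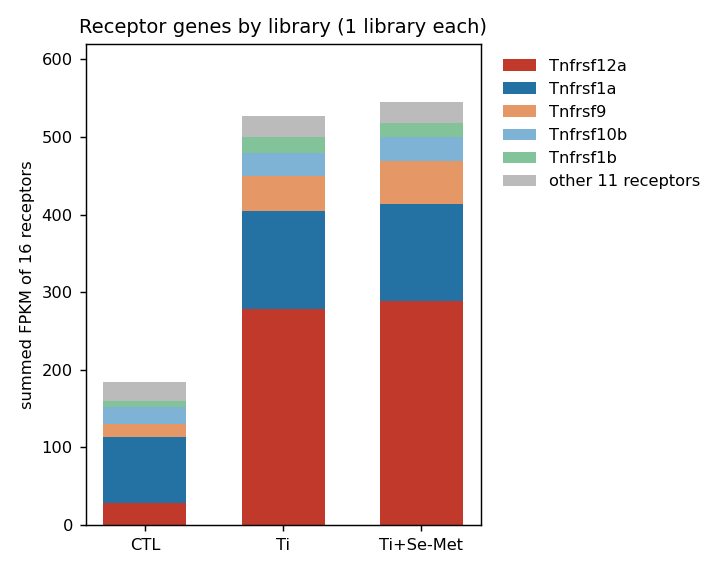
Summed FPKM of the 16 receptor genes in each library (vertical axis, starting at 0; 1 library per bar, so no error bar). Colours stand for the 5 receptors with the highest levels and grey for the other 11: the Tnfrsf12a segment grows from 28.2 FPKM in CTL to 278 with Ti, and to 289 with Ti+Se-Met.

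Tnfrsf12a, the receptor for TWEAK known as Fn14, showed the largest difference of any of the 26 genes. Its level was 28.2 FPKM in CTL, 278 with Ti, and 289 with Ti+Se-Met, which rested on about 262, 2705 and 1991 fragments. By rank among all listed genes it moved from 2932 in CTL to 251 with Ti, and to 231 with Ti+Se-Met. The fold was 9.88 for Ti against CTL (8.69 to 11.2) and 10.3 for Ti+Se-Met against CTL (9.02 to 11.7). Both libraries with particles were thus far above CTL, and the fold between them was 1.04 (0.981 to 1.10), an interval that includes equal levels as deposited and lies above them under the 3 other scalings. Over the 4 scalings its log2 difference for Ti against CTL lay between 3.05 and 3.26. Tnfrsf12a overlaps Hcfc1r1 in the annotation, and the library kit is not one that marks strand, so reads in the shared stretch cannot be assigned to either gene. Hcfc1r1 itself was at 58.9, 76.0 and 78.5 FPKM, a smaller difference than that of Tnfrsf12a. Fn14 is a small receptor that binds TRAF adaptors through a short tail and has no death domain.

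The stretch from 250 bases before to 50 bases after the annotated start of Tnfrsf12a is shown because this gene differed the most. It comes from RefSeq on GRCm38.p6, while the submitters' processing notes name mm9, so its coordinates are not those of the deposited files. Motifs were searched on both strands and would be in capitals: AP-1 (TGANTCA), the NF-kB consensus, and TATAAA. None of the 3 was found in this window.
Tnfrsf12a (chr17:23677400-23677699, minus strand): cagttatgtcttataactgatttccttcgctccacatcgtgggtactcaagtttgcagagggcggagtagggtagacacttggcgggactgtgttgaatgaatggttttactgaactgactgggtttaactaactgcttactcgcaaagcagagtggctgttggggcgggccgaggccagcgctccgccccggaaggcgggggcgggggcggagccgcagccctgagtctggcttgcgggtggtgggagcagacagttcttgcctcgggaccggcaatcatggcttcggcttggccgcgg

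Tnfrsf9 encodes CD137, a receptor best known as a costimulator of T cells. It stood at 17.8 FPKM in CTL, 45.3 with Ti, and 55.8 with Ti+Se-Met. The fold was 2.55 for Ti against CTL (2.30 to 2.84) and 3.14 for Ti+Se-Met against CTL (2.82 to 3.51). Its interval for Ti+Se-Met against Ti lay above equal levels in all 4 scalings, with a fold of 1.23 (1.14 to 1.34) as deposited. Of the lymphocyte markers, Cd79a and Ms4a1 of B cells summed to 0.19 FPKM at most, and Cd3e, Cd4 and Cd8a of T cells were not analysed here, nor was the ligand gene Tnfsf9.

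RefSeq gives 2 starts for Tnfrsf9. The window at the downstream start is shown because it was the only one, of 8 windows for the 6 genes past 2-fold, that held AP-1 or NF-kB letters. The capitals mark an AP-1 match, whose first base lies 15 bases before the start, and overlapping NF-kB consensus matches whose first bases lie 43 and 42 bases before it. Across 32851 RefSeq promoters of the same length, 7.81% held the AP-1 letters, 4.505% the NF-kB consensus and 13.6% TATAAA. Of 38 windows for the 33 TNF family genes that matched the RefSeq table, 7, 4 and 2 held them. A match is a run of letters, and nothing here measured binding.
Tnfrsf9, downstream start (chr4:150927749-150928048, plus strand): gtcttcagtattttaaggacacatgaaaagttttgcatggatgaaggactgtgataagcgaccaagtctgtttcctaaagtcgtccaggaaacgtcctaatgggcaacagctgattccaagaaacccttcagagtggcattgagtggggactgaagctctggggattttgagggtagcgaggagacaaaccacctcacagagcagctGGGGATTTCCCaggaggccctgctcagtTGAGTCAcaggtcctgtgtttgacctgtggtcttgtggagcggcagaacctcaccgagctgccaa

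Tnfrsf1b encodes TNFR2, the TNF receptor without a death domain. Its level was 8.58 FPKM in CTL, 20.4 with Ti, and 18.8 with Ti+Se-Met. The folds against CTL were 2.38 in Ti (2.13 to 2.66) and 2.19 in Ti+Se-Met (1.94 to 2.47), and the fold between the libraries with particles was 0.919 (0.835 to 1.01). After TPM rescaling its log2 difference of Ti against CTL was 0.98, just under 2-fold, as against 1.16 as deposited. Tnfrsf1a, which encodes TNFR1, the receptor for TNF that carries a death domain, was the most abundant receptor of CTL. It stood at 84.7 FPKM in CTL, 126 with Ti, and 124 with Ti+Se-Met, with a fold of 1.49 for Ti against CTL (1.42 to 1.57) and 1.47 for Ti+Se-Met against CTL (1.39 to 1.55). The TNF receptors thus were both higher with particles, TNFR2 by the larger fold from the lower level.

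The other death receptors did not share a direction. Tnfrsf10b encodes the mouse TRAIL receptor that kills (DR5), and its level was 21.0 FPKM in CTL, 29.8 with Ti, and 30.2 with Ti+Se-Met. The fold was 1.42 for Ti against CTL (1.30 to 1.55), and Ti+Se-Met against Ti gave 1.01 (0.931 to 1.10). Tnfrsf21, which encodes DR6, was in contrast lower with particles, at 3.05, 1.47 and 1.91 FPKM, and its fold was 0.482 for Ti against CTL (0.359 to 0.639). Its log2 difference of -0.71 did not reach 2-fold as deposited, but did after TPM rescaling. Tnfrsf25 (DR3) lay between 0.14 and 0.19 FPKM.

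Tnfrsf22 and Tnfrsf23 are neighbouring mouse genes for decoy receptors, which bind TRAIL but carry no death domain. Tnfrsf23 stood at 3.48 FPKM in CTL, 13.3 with Ti, and 12.2 with Ti+Se-Met. Its fold was 3.83 for Ti against CTL (2.73 to 5.53) and 3.51 for Ti+Se-Met against CTL (2.44 to 5.13), the second largest folds on the higher side among the 26 genes, on 42, 169 and 109 fragments. Tnfrsf22 gave 6.11, 9.06 and 8.02 FPKM, and its fold for Ti against CTL was 1.48 (1.27 to 1.74). CTL thus had more Tnfrsf22 than Tnfrsf23, and both libraries with particles had the reverse order. The 2 genes are close copies, and how reads that match both were counted is not given in the sources used here, so the division between them is uncertain. Tnfrsf26, the third gene of the cluster, was at 0.02, 0.07 and 0.03 FPKM.

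The Tnfrsf23 window is shown because its fold for Ti against CTL was the next after Tnfrsf12a on the higher side. Its capitals mark TATAAA letters read on the opposite strand, 158 bases before the start.
Tnfrsf23 (chr7:143685826-143686125, minus strand): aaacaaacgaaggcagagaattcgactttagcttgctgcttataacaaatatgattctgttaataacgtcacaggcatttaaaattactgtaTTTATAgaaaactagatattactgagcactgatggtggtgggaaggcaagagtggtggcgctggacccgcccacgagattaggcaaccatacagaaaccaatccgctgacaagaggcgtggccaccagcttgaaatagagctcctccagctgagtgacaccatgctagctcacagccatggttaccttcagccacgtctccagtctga

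Tnfrsf19 alone, of the 26 genes, passed 2-fold on the lower side with Ti in log2(FPKM + 1) as deposited. With 0.1 added in place of 1, Tnfrsf14 and Tnfrsf21 passed it too. Tnfrsf19 encodes TROY, an orphan receptor found in skin, brain and mesenchymal precursors. Its level was 3.50 FPKM in CTL, 0.39 with Ti, and 0.47 with Ti+Se-Met, on about 190, 22 and 19 fragments. It passed the filter only through the CTL library. The fold was 0.111 for Ti against CTL (0.0677 to 0.173) and 0.134 for Ti+Se-Met against CTL (0.0796 to 0.217), so both libraries with particles were far below CTL. Between them the interval was wide, at 1.21 (0.625 to 2.36). Tnfrsf14 encodes HVEM, the receptor for LIGHT, and showed the next largest difference on the lower side. It stood at 7.01 FPKM in CTL, 3.13 with Ti, and 3.68 with Ti+Se-Met. Its log2 difference for Ti against CTL, -0.96, fell just short of 2-fold as deposited and passed it after TPM or upper-quartile scaling. The fold was 0.447 for Ti against CTL (0.301 to 0.662), on 85 and 40 fragments.

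Of the 2 RefSeq windows for Tnfrsf19, neither held any of the 3 motifs, and the upstream start is shown as that of the gene with the largest lower difference. Tnfrsf19 lies below the mean FPKM of 5 set for showing a sequence and was chosen after its values were seen.
Tnfrsf19, upstream start (chr14:61046806-61047105, minus strand): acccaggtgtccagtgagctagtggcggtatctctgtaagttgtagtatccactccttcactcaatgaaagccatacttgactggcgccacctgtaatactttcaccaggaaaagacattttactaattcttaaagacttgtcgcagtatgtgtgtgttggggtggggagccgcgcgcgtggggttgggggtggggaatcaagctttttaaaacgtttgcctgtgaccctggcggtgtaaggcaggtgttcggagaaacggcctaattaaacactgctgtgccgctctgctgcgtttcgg

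The remaining receptors, Tnfrsf4 (OX40), Tnfrsf11a (RANK), Tnfrsf13c (the BAFF receptor) and Tnfrsf18 (GITR), gave at most 0.32 FPKM. These are receptors of lymphocytes or, for RANK, of osteoclast precursors. Tnfrsf11a was at 0.01 FPKM in CTL and listed at 0 in Ti and Ti+Se-Met, and Tnfrsf18 was at 0.32 FPKM in CTL and listed at 0 in both others. Tnfrsf8, Tnfrsf13b and Tnfrsf17 were not analysed here.

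Ligand and receptor levels can be read side by side for the pairs in which both genes were listed. TWEAK and Fn14 were within a small factor in CTL, at 22.2 and 28.2 FPKM, and far apart in Ti, at 16.2 and 278, and in Ti+Se-Met, at 20.1 and 289. For TRAIL and its death receptor the ligand was the lower of the pair in every library, at 3.08 against 21.0 FPKM in CTL, 1.68 against 29.8 in Ti and 2.46 against 30.2 in Ti+Se-Met. LIGHT was listed at 0 in CTL and Ti and at 0.05 FPKM in Ti+Se-Met, beside the HVEM levels above. BAFF and its receptor gene, and TL1A and DR3, were each at or below 0.22 FPKM in all libraries.

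**Figure D3:**
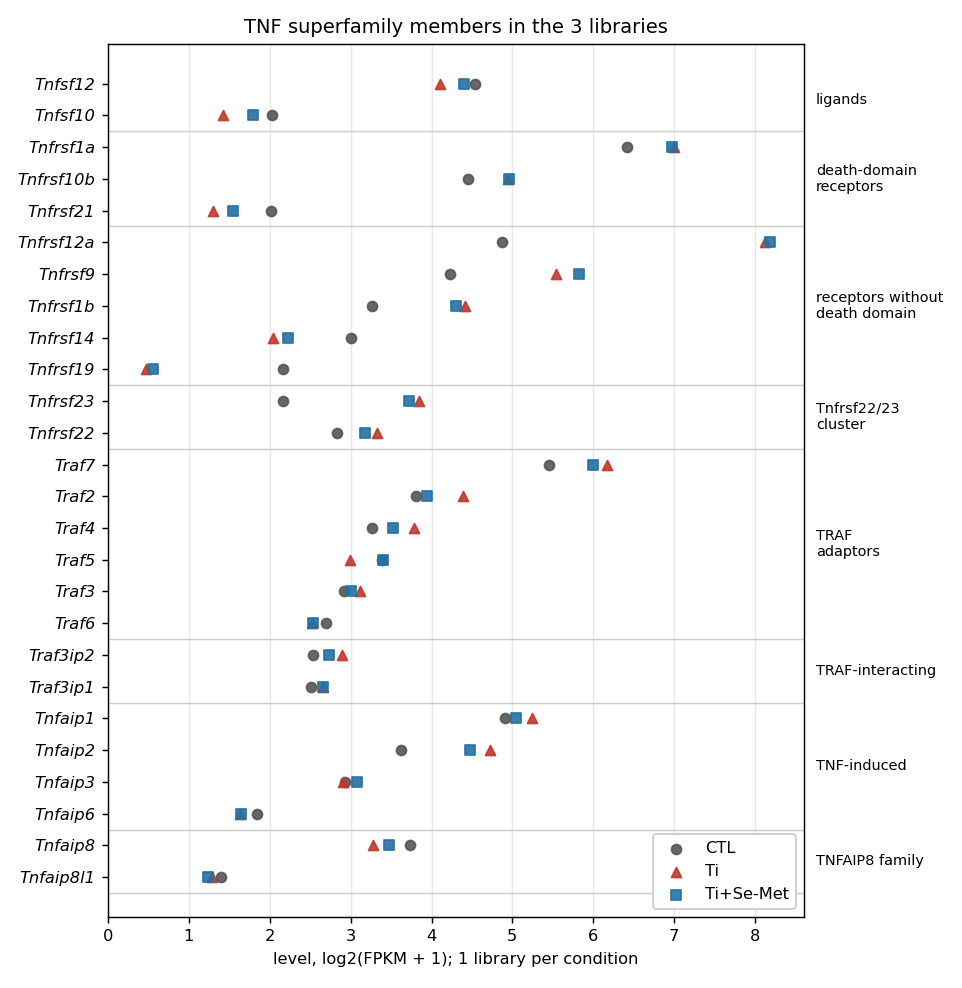
Levels of the 26 TNF family genes that reached 1 FPKM in any library, in log2(FPKM + 1), with 1 point per library (grey circle CTL, red triangle Ti, blue square Ti+Se-Met; 1 library per condition, so no error bar) and genes grouped by role. Tnfrsf12a, Tnfrsf9, Tnfrsf1b and Tnfrsf23 have their grey circle well to the left of the other symbols, and Tnfrsf19 has it to the right.

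TRAF adaptors carry the signal from the receptors to kinases and ubiquitin ligases, and none of the 7 listed reached 2-fold in any comparison. Their FPKM summed to 86.4 in CTL, 124 with Ti, and 109 with Ti+Se-Met. Traf7, which has a WD40 tail in place of the receptor-binding domain of its relatives, was the most abundant at 42.8, 71.1 and 62.7 FPKM. Its fold was 1.66 for Ti against CTL (1.56 to 1.77) and 0.882 for Ti+Se-Met against Ti (0.831 to 0.937). Traf7 was therefore highest in Ti, and Ti+Se-Met lay between Ti and CTL.

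Traf2 is the adaptor that recruits the ubiquitin ligases cIAP1 and cIAP2 to TNF receptors. It stood at 13.1 FPKM in CTL, 19.98 with Ti, and 14.4 with Ti+Se-Met. Its fold was 1.53 for Ti against CTL (1.36 to 1.73) and 0.723 for Ti+Se-Met against Ti (0.636 to 0.821), the lowest fold of the 26 genes in that comparison. Against CTL the Ti+Se-Met library gave 1.11 (0.962 to 1.27), which includes equal levels, and its sign turned after TPM rescaling. Traf4, known from development and epithelial cells, gave 8.61, 12.8 and 10.5 FPKM, with a fold of 1.48 for Ti against CTL (1.26 to 1.76) and 0.822 for Ti+Se-Met against Ti (0.692 to 0.979). Traf7, Traf2 and Traf4 shared this order of levels, with CTL the lowest and Ti the highest.

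Traf5, a close relative of Traf2, instead had its lowest level in Ti. It stood at 9.47 FPKM in CTL, 6.97 with Ti, and 9.57 with Ti+Se-Met, and its fold was 0.736 for Ti against CTL (0.550 to 0.989) and 1.37 for Ti+Se-Met against Ti (0.994 to 1.87). With 82 to 110 estimated fragments per library these intervals are wide, and the second includes equal levels as deposited but lies above them under the 3 other scalings. Traf5 was the 1 family gene whose transcript length, 976 bases, was matched by gene symbol only. A longer transcript would mean more fragments and narrower intervals, so the fragments and intervals of Traf5 are less certain than those of the other genes. Traf3, an inhibitor of the alternative NF-kB route, gave 6.53, 7.68 and 7.01 FPKM, with a fold of 1.18 for Ti against CTL (1.06 to 1.31) whose interval reached equal levels under another scaling. Traf6, the adaptor shared by RANK, CD40 and Toll-like receptors, gave 5.46, 4.74 and 4.81 FPKM, with a fold of 0.868 for Ti against CTL (0.758 to 0.992). Traf1, itself a well-known NF-kB target, lay between 0.33 and 0.68 FPKM.

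Of the proteins that bind TRAFs, Traf3ip2 encodes Act1, the adaptor of the IL-17 receptor, and gave 4.81 FPKM in CTL, 6.46 with Ti, and 5.65 with Ti+Se-Met. Its fold for Ti against CTL was 1.34 (1.10 to 1.63), with an interval that reached equal levels under another scaling. Traf3ip1, a component of intraflagellar transport in cilia, gave 4.70, 5.34 and 5.32 FPKM, and all its intervals include equal levels. Traf3ip3 was at or below 0.14 FPKM.

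The Tnfaip genes were named for induction by TNF and share no common function. Of the 6 that passed the filter only Tnfaip2 reached 2-fold, in Ti against CTL, beside 7.26% of all genes. Tnfaip2 encodes M-Sec, a protein of membrane tubes between cells. It stood at 11.3 FPKM in CTL, 25.4 with Ti, and 21.2 with Ti+Se-Met. Its fold was 2.25 for Ti against CTL (2.04 to 2.48) and 1.88 for Ti+Se-Met against CTL (1.68 to 2.09). Between the libraries with particles it was 0.834 (0.763 to 0.911), so Tnfaip2 was the only gene of the 6 past 2-fold whose interval lay below equal levels there. Its log2 difference for Ti against CTL ranged from 0.91 to 1.10 over the scalings, on both sides of 2-fold.

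Tnfaip3 encodes A20, a deubiquitinase that shuts off NF-kB and is a classic immediate target of it. Its level was 6.60 FPKM in CTL, 6.48 with Ti, and 7.48 with Ti+Se-Met. The fold for Ti against CTL was 0.982 (0.853 to 1.13), so A20 differed by less than counting error as deposited, and only after TPM rescaling did its interval lie below equal levels. Tnfaip1, an adaptor of cullin ubiquitin ligases, gave 29.0, 36.8 and 32.0 FPKM, with a fold of 1.27 for Ti against CTL (1.19 to 1.36) and 0.869 for Ti+Se-Met against Ti (0.808 to 0.935). Tnfaip6, which encodes TSG-6, a hyaluronan-binding protein that dampens inflammation, gave 2.60, 2.1 and 2.14 FPKM, and all its intervals include equal levels. Tnfaip8, a regulator of lipid signalling and cell survival, gave 12.3, 8.69 and 10.1 FPKM, and its fold for Ti against CTL was 0.707 (0.588 to 0.849). Its relative Tnfaip8l1 gave 1.64, 1.43 and 1.36 FPKM, and Tnfaip8l2 lay between 0 and 0.22 FPKM. Tnfaip8l3 was not analysed here.

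Intervals for counting error alone left out equal levels for many of the 26 genes, as they did for genes at large. For Ti against CTL the interval lay above equal levels for 14 of the 26 genes, beside 42.7% of all genes with a known length, and below for 8, beside 32%. For Ti+Se-Met against CTL it lay above for 11, beside 35.8%, and below for 4, beside 33.5%. For Ti+Se-Met against Ti it lay above for 3, Tnfrsf9, Tnfsf12 and Tnfsf10, beside 15.6% of all genes, and below for 5, Traf7, Tnfaip1, Tnfaip2, Traf2 and Traf4, beside 29.2%. Under every one of the 4 scalings the numbers above and below were 12 and 8 in the comparison of Ti with CTL, 8 and 3 in that of Ti+Se-Met with CTL, and 3 and 4 between Ti+Se-Met and Ti, the gene lost from the last being Traf4. Each of the 3 other scalings put 6 genes above between Ti+Se-Met and Ti, with Tnfrsf12a, Traf5 and Tnfaip3 added. The 13 genes below 1 FPKM rested on at most 22 fragments in a library, and every interval that could be computed for them included equal levels, so differences among them were not detectable at this depth. Traf7 overlaps Caskin1 in the annotation, and Traf2, Traf3, Traf3ip2, Traf5, Tnfrsf19, Tnfrsf23, Tnfaip8 and Tnfaip8l1 overlap other annotated genes, so without strand their values may hold reads of those.

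**Figure D4:**
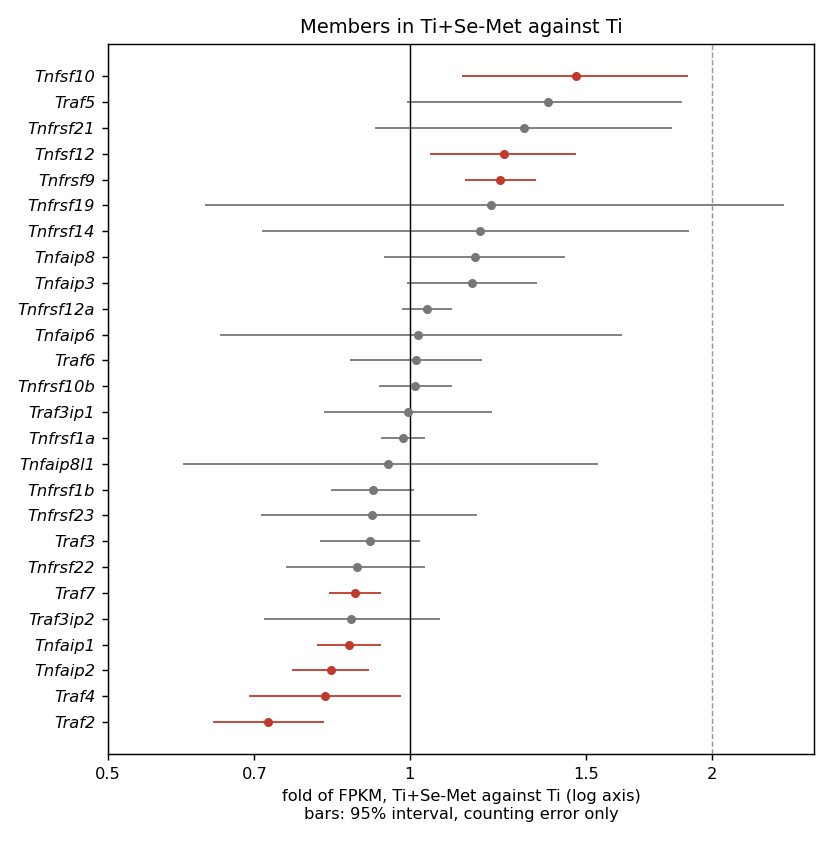
Fold of FPKM in Ti+Se-Met against Ti for each of the 26 genes (horizontal log axis), with 95% exact intervals for counting error only and 1 library per condition. Red marks intervals that leave out 1: Tnfsf10, Tnfsf12 and Tnfrsf9 on the right, and Traf7, Tnfaip1, Tnfaip2, Traf4 and Traf2 on the left, with no gene at the dashed 2-fold line.

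Family genes under other names were described from a list of 17, of which 11 were listed and 5 passed the filter. None of the 5 reached 2-fold in Ti against CTL, beside 7.26% of all genes. Relt fell short there with a log2 difference of 0.73, though its fold of FPKM without the added 1 passed 2-fold (interval 1.53 to 3.16). Fas alone did in Ti+Se-Met against CTL, on the lower side, beside 3.32% of all genes. Fas encodes a death receptor and stood at 15.9 FPKM in CTL, 8.25 with Ti, and 6.58 with Ti+Se-Met, with a fold of 0.413 for Ti+Se-Met against CTL (0.305 to 0.558). Ltbr, the lymphotoxin β receptor and a neighbour of Tnfrsf1a in the genome, gave 68.3, 100.3 and 97.8 FPKM, a fold of 1.47 for Ti against CTL (1.38 to 1.56). That fold is close to the 1.49 of Tnfrsf1a, and also to the 1.48 of both Tnfrsf22 and Traf4 on other chromosomes. Whether position in the genome mattered was not tested.

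Proteins that act next to the receptors were given by a list of 35, of which 34 were listed and passed. In Ti against CTL 1 was higher, beside 3.63% of all genes, 1 was lower, beside 3.64%, and the median was -0.03, beside 0.08. The lower gene was Birc2, which encodes cIAP1, at 22.7 FPKM in CTL, 7.41 with Ti, and 6.53 with Ti+Se-Met, with a fold of 0.327 for Ti against CTL (0.288 to 0.371). The higher gene was Tifa, a TRAF-binding adaptor, at 2.40, 6.05 and 4.75 FPKM. Cyld, Birc3 and Ripk3 fell just short in Ti against CTL, with log2 differences of -0.97, -0.91 and 0.89. Without the added 1 each passed 2-fold, Ripk3 only barely. The fold of FPKM for Ti against CTL was 0.471 for Cyld (0.422 to 0.525) and 0.486 for Birc3 (0.403 to 0.585). Ripk3 stood at 5.94 FPKM in CTL, 11.9 with Ti, and 11.4 with Ti+Se-Met. Birc2 was also the only gene of the list past 2-fold in Ti+Se-Met against CTL, beside 5.96% of all genes.

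NF-kB subunits and inhibitors had 10 of 11 genes listed, and their median stood at 0.33 with Ti and at 0.25 with Ti+Se-Met, each against CTL. These stand beside 0.08 and 0.01 over all genes. Bcl3 alone was past 2-fold, on the higher side in both comparisons, beside 3.63% and 2.64% of all genes. It encodes a nuclear partner of NF-kB subunits, and stood at 0.63 FPKM in CTL, 2.78 with Ti, and 3.70 with Ti+Se-Met. It passed the filter only through the libraries with particles, and rested on about 15, 69 and 65 fragments.

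Known NF-kB-inducible genes did not share a direction. Of 19 in that list, 15 were listed and 12 passed, and in Ti against CTL 1 was higher, beside 3.63% of all genes, and 2 were lower, beside 3.64%. Lif and Ptgs2 fell just short on the higher side, each with a log2 difference of 0.98. Their folds of FPKM for Ti against CTL were 2.67 (2.03 to 3.50) and 2.13 (1.88 to 2.41). Lif stood at 1.41 FPKM in CTL, 3.76 with Ti, and 3.60 with Ti+Se-Met. Ccl5, a chemokine, stood at 20.03 FPKM in CTL, 3.86 with Ti, and 4.04 with Ti+Se-Met, and was lower in both comparisons with CTL. Cxcl10, an interferon-induced chemokine, was the other lower gene, at 5.57, 1.68 and 5.75 FPKM, and was thus 2-fold higher in Ti+Se-Met than in Ti. Saa3, an acute-phase protein, was the higher gene, listed at 0 in CTL and at 1.09 and 0.51 FPKM in the others. It passed the filter only through the Ti library, on about 6 fragments there and 0 in CTL. Ptgs2, which encodes COX-2, stood at 6.10 FPKM in CTL, 13.0 with Ti, and 51.8 with Ti+Se-Met, a fold of 3.99 between the last 2 libraries (3.68 to 4.32). Cxcl10 and Ptgs2 were 2 of the 12 higher between those libraries, beside 0.162% of all genes. None was lower, beside 0.0629%.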

How the data were processed

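Total RNA of MC3T3-E1 cells was sequenced in 3 libraries, prepared with a kit that does not mark strand. According to the study's methods the authors dropped poor or adapter-bearing reads, mapped the rest by HISAT2 and took counts per gene by HTSeq, while the submitters' processing notes name HISAT2, SAMtools, StringTie and mm9. The authors deposited FPKM values per gene, with 2 decimals, and how these were made from counts is not given in the sources used here. Each value column was matched to its library by name. No count model was fitted to FPKM.

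Differences in log2(FPKM + 1) were taken over the 11137 genes that reached 1 FPKM in any library (scipy 1.17.1, pandas 2.3.3, numpy 2.4.6, Python 3.11.15). Depth was estimated from steps of 1 fragment in 453 genes with a transcript of 350 to 1000 bases, less 150 bases, with lengths from GENCODE M21 found for 96.5% of genes. Depths of 10400000 to 14700000 fragments make 1 fragment per kb worth 0.0680 to 0.0962 FPKM. The steps were tested on simulated data made with the same lengths and counting error only, so those assumptions were not themselves tested. Family genes past 2-fold or averaging 5 FPKM or more, the ligand and receptor pairs, and genes of the lists past 2-fold are named with their values, and others by range. Tnfrsf21, Tnfaip6, Tnfaip8l1, Ltbr, Relt, Ripk3, Birc3, Cyld, Lif and the overlapping genes fall outside this rule and were chosen after their values were seen. The genes and lists were chosen with earlier results of these data known. Alternatives were pseudocounts of 0.1 and 5, calls at 1.5-fold or 4-fold, dropping the filter or asking for an average of 5 FPKM, and scaling to TPM, to the upper quartile or by median ratios.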

Additional observations from a re-analysis of the deposited data

How the results depend on the processing

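No paired analysis was possible because there was only 1 library of each kind, and for the same reason no library could be left out. Ti against CTL had 6 genes past 2-fold, which became 10 at 1.5-fold (26.8% of all genes), 3 when the pseudocount was 5 (2.99%), and 1 at 4-fold (0.512%), where Tnfrsf12a was left. The 5 genes in Ti+Se-Met against CTL became 1 at 4-fold (0.440%) and 3 when the pseudocount was 5 (2.18%). The median difference of 0.27 in Ti against CTL became 0 without a filter, 0.49 at a mean FPKM of at least 5, 0.058 after TPM rescaling and 0.14 after upper-quartile scaling. That of 0.14 in Ti+Se-Met against CTL became 0.014 without a filter and -0.035 after TPM rescaling. With no filter 39 genes were counted and with the mean of 5 only 20. TPM rescaling multiplied every value of CTL by 2.23, of Ti by 1.90 and of Ti+Se-Met by 1.94. The upper-quartile factors were 1.05, 0.954 and 1.00 in the same order. For the remaining settings the cause was not tested. A value of a single gene was counted as moved where its log2 difference left the counting interval of its FPKM fold. Of 105 values of single genes under alternatives in each comparison, 30 moved when Ti was set against CTL, 18 when Ti+Se-Met was, and 0 between Ti+Se-Met and Ti. That interval has no pseudocount and narrows with more fragments, so these counts do not by themselves measure sensitivity. The main values of Tnfrsf19 against CTL already lay outside it. A pseudocount of 0.1 gave 8 genes past 2-fold in Ti against CTL, beside 11.2% of all genes. Of these 5 were higher and 3 lower, with Tnfrsf14 and Tnfrsf21 added on the lower side. Under TPM rescaling the sign turned for Traf3ip1 in both comparisons with CTL, and for Tnfaip1, Tnfaip3, Traf2, Traf3 and Traf5, the last also under the upper quartile, in Ti+Se-Met against CTL. The small differences of Tnfrsf1a and Traf3ip1 between Ti+Se-Met and Ti turned under all 3 other scalings. Ti+Se-Met against Ti gave 0 genes past 2-fold under all settings tried. The low genes of Ti+Se-Met are the least precise, since it was sequenced least.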

Other observations

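The deposited table carries KEGG terms. Of the 39 genes, 18 carry the term for cytokine-cytokine receptor interaction, 11 that for NF-kappa B signaling, 7 that for TNF signaling and 5 that for apoptosis. The TNF signaling term covers 100 listed genes, of which 85 passed the filter. In Ti against CTL 7 of the 85 were at least 2-fold higher, beside 3.63% of all genes, and 6 lower, beside 3.64%, and the median was 0.01, beside 0.08 over all genes. The higher genes were Atf4, a factor of the stress response, Cebpb, Socs3, an inhibitor of cytokine signalling, Junb and Fos, which are AP-1 subunits, Tnfrsf1b and Bcl3. The lower genes were Pik3r1, a regulatory subunit of PI3-kinase, Birc2, Ccl5, Rps6ka5, Mmp9, a gelatinase, and Cxcl10. In Ti+Se-Met against CTL 8 were higher, beside 2.64% of all genes, and 6 lower, beside 3.32%. In Ti+Se-Met against Ti 2 of the 85, Ptgs2 and Cxcl10, were higher, beside 0.162% of all genes. None was lower there, beside 0.0629%. Of the 7 TNF family genes with the term, Tnfrsf1b was the only gene past 2-fold.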
